A study of Mus musculus with 15 samples.

Results

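Haloperidol was compared with placebo in the cell classes of the mouse striatum. The members are the cells of the deposited count table whose drug line reads haloperidol or placebo, 3227 of the 5581 cells in the table, with 1480 from 5 haloperidol mice and 1747 from 5 placebo mice. Counts of unique molecular identifiers (UMIs, which mark single RNA molecules) were summed per mouse within each class that the authors deposited, and a sum was kept where it held at least 10 cells.

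All mice were male C57BL/6J animals, an inbred strain with no transgene in the labels, bought at 8 weeks of age and left about 1 week to settle. Haloperidol came from implanted pellets for 28 to 29 days. The labels do not say how placebo was given. A further group of 5 mice had olanzapine in food and entered the fits only to steady the estimate of spread. Each mouse was 1 library, for which 500 cells were loaded into a 10x Genomics droplet well after perfusion, slicing, trituration and removal of dead cells. Mice are named here by group and by order of deposit.

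The striatum receives cortical and dopaminergic input and passes it on to the rest of the basal ganglia. Its principal cells are GABAergic projection neurons: those of the direct pathway carry the D1 dopamine receptor and the peptides substance P and dynorphin, those of the indirect pathway the D2 receptor, an adenosine receptor (Adora2a) and enkephalin. Haloperidol is a typical antipsychotic that blocks D2 receptors, and it is known for inducing immediate early genes and enkephalin in indirect-pathway neurons. Glia, vessel cells and migrating neuroblasts are taken up with the neurons when striatal tissue is dissociated.

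Placebo 5 stands apart and shares cells with other libraries. It had 110 cell barcodes in common with placebo 3 and 101 with placebo 2. The class was the same for 109 of the 110 and all 101, and the counts of the paired cells correlated at a median r of 0.654 and 0.670, against 0.343 and 0.374 for other pairs of cells of the same class in those mice. The copies in placebo 5 held a median of 0.308 and 0.328 of the UMIs of their partners. These 211 cells, 41.1% of the 514 deposited for placebo 5, were left out, as were 2 cells of haloperidol 5 (731 and 879 UMIs) that shared barcode and class with far deeper cells of placebo 2. Other shared barcodes numbered 14 over 12 pairs of libraries, at most 2 in a pair. Results that change when the repeated cells are kept are given with both values.

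After these cells, 14 cells with over 20% mitochondrial UMIs and 17 called doublets were left out, 2983 cells with 9924597 UMIs remained. There were 893 astrocytes, 514 neurons, 401 microglia, 362 neuroblasts, 323 cells of the class other, 276 of the class labelled oligodendrocyte and 214 of the class labelled olig precursor. Cells per mouse ran from 91 to 623 with haloperidol and from 165 to 445 with placebo, and median UMIs per cell from 2275 to 2885 and from 2417 to 3664. The median mitochondrial share was 3.15% ± 0.786 with haloperidol and 2.53% ± 0.361 with placebo (SD, n = 5 each), and an exact permutation test (two-sided) gave p = 0.540 after adjustment over 4 measures of library quality. Haloperidol 1 and haloperidol 2 had the fewest cells, 122 and 91.

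Fixed markers placed most classes. The 9 astrocyte markers summed to medians of 20553 CPM (counts scaled to one fixed total per library, here on the raw scale) in astrocytes of haloperidol mice and 22654 in those of placebo mice. The 9 microglial markers summed to 51896 to 61936 CPM and 57267 to 70200 CPM in microglia. The labels of the oligodendrocyte lineage went against their markers: the class labelled oligodendrocyte carried markers of precursors, at medians of 5176 and 5227 CPM, with myelin markers at 1659 and 2977 CPM, and is called below by its label. The class other held vessel cells, with endothelial markers at medians of 11991 CPM with haloperidol and 14595 CPM with placebo, pericyte markers at 8474 and 10911 CPM, and smooth muscle and fibroblast markers.

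In the class other, 1 of 3031 genes tested was called by edgeR (0.033%), and it was the only call among 19285 tests over 6 classes (0.00519%). In this class 4.42% of genes had an unadjusted p under 0.05, 2.05% higher and 2.38% lower with haloperidol, and at any p 49.2% were higher and 50.8% lower. Over the 6 classes 713 tests (3.7%) had an unadjusted p under 0.05. The count of calls was 0 without haloperidol 3 or haloperidol 4 and 1 without any other single mouse. Haloperidol 1 had 8 cells in this class and did not enter, so that 4 haloperidol and 5 placebo mice were compared. The results below concern the described lists and the genes that came next by p, none of which passed.

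Tmsb10, the gene of a thymosin that binds actin monomers (GRCm38, GENCODE M21 annotation, chromosome 6, 72957347 to 72958748, minus strand), did not pass in the class other. It was at 826, 1681, 1590 and 1680 CPM in haloperidol 2 to 5 and at 3184, 2757, 3671, 2771 and 2567 CPM in placebo 1 to 5. The groups did not overlap (values are CPM scaled by edgeR's TMM library size, as below unless called raw), and haloperidol 2 was the lowest by far. The means were 1444 ± 414 (SD, n = 4) and 2990 ± 442 CPM (SD, n = 5), with a log2 fold change of -1.03 ± 0.21 (edgeR quasi-likelihood test, Benjamini-Hochberg adjusted p = 0.0927). These values rest on 521 UMIs in 141 cells and 1639 UMIs in 174 cells. It was called with the repeated cells of placebo 5 kept (-1.14, adjusted p = 0.0341), with DESeq2 (adjusted p = 0.0174) and without the filter on low counts (edgeR adjusted p = 0.0109). It was not called with haloperidol and placebo mice only (edgeR adjusted p = 0.205), nor with any single mouse left out, where edgeR adjusted p-values ran from 0.0980 to 0.354.

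The cells of the class other were also split by which of the fixed vessel marker lists had the largest sum. Endothelial-led cells held 335 Tmsb10 UMIs in 81 cells of haloperidol mice and 1410 in 109 cells of placebo mice, which is 1504 and 2998 raw CPM. Pericyte-led cells were at 1134 and 1171 raw CPM. In these counts, pooled over mice and with no test, Tmsb10 was lower with haloperidol in endothelial-led cells and close to placebo in pericyte-led cells. Smooth muscle-led cells held 29 and 12 Tmsb10 UMIs and fibroblast-led cells 42 and 48, most of the 42 from haloperidol 5 alone, too few for a comparison.

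Endothelial-marker cells were those with at least 3 UMIs of endothelial markers, and more of them than of mural and fibroblast markers. In mice with at least 5 such cells Tmsb10 was at 1215 ± 679 raw CPM with haloperidol (SD, n = 4, range 480 to 1836) and 3711 ± 1103 with placebo (SD, n = 5, range 2741 to 5613). In the remaining cells of the class it was at 1025 ± 450 (SD, n = 5) and 1015 ± 148 raw CPM (SD, n = 5). The difference between these 2 sets of cells was not tested. An edgeR fit of the endothelial-marker cells alone, at this unplanned cut of 5 cells, called 0 of 1399 genes, with Tmsb10 at -1.52 ± 0.32 (adjusted p = 0.211). Outside vessels it was most abundant in neuroblasts, where it was at 11036 ± 2310 and 11974 ± 3108 CPM (-0.11 ± 0.18). The related gene Tmsb4x was at -0.43 ± 0.19 in the class other (edgeR adjusted p = 0.983).

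Summed over all cells of a mouse, Tmsb10 was at 1545 ± 480 CPM with haloperidol and 1777 ± 183 CPM with placebo (SD, n = 5 each), with a log2 fold change of -0.20 ± 0.21 and overlapping groups. Of 10604 genes in these sums 0 passed by edgeR, and 677 had an unadjusted p under 0.05. In a whole-mouse sum, fewer cells of a type and less RNA per cell cannot be told apart. The test of whether the haloperidol difference varied between classes called 0 of 7148 genes (0%), with 218 at an unadjusted p under 0.05 (3.05%). Tmsb10 was among the 218 (edgeR adjusted p = 1.00, unadjusted p = 0.00243). Of the genes taken up below, Penk, Tmem30a, Tac1 and Tmem55b had smaller p-values in this edgeR test (unadjusted p = 0.000174, 0.00128, 0.0017 and 0.00176). The Penk terms, each relative to astrocytes, were 3.81 in the class labelled oligodendrocyte, -2.08 in microglia and -0.32 in neurons. Indirect-pathway markers, Penk among them, summed to at most 90.4 raw CPM in the class labelled oligodendrocyte and 24.2 in microglia. The largest Penk terms were thus in classes that held little of it.

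The makeup of the class other differed between the groups in its smooth muscle markers. All 7 of 7 were seen, and their sum was 5052 to 8796 raw CPM with haloperidol and 2111 to 5162 with placebo, ranges that overlap through placebo 5. Endothelial markers were at 9674 to 17215 and 10549 to 18618 raw CPM, pericyte markers at 4386 to 10553 and 4254 to 12667, and fibroblast markers at 112 to 1938 and 169 to 1791. Pooled over mice, haloperidol 1 included, endothelial-led cells were 54.4% of the class with haloperidol and 62.6% with placebo. Pericyte-led cells were 28.2% and 24.1%. The part of this makeup in the values of Tmsb10 and of the vessel genes below was not tested.

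Contractile genes of smooth muscle were higher in the class other in 9 of 9 tested members, with a median log2 fold change of 0.87, where 49.2% of all genes in the class were higher and the median over all of them was -0.01. None passed the adjusted threshold. Myh11, the smooth muscle myosin heavy chain gene, was at 854, 317, 289 and 330 CPM with haloperidol and at 287, 112, 176, 68.3 and 278 CPM with placebo (1.17 ± 0.42). Haloperidol 2 was far above the other 3, which lay just above the highest placebo mice. Mylk, the gene of myosin light chain kinase, was at 0.87 ± 0.35. The 7 smooth muscle markers summed above all belong to this list, so the 2 results are not separate. Pooled over mice, smooth muscle-led cells were 15 with haloperidol (10.1% of the class) and 8 with placebo (4.6%). More such cells and more RNA of these genes per cell cannot be told apart in the class sums.

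Genes of the blood-brain barrier were lower in 13 of 17 members (median -0.29), with 2 lower at an unadjusted p under 0.05, a level that 2.38% of all genes in the class reached in that direction. Slc38a5, an amino acid transporter gene, was at 82.6, 259, 133 and 30.0 CPM against 394, 534, 441, 556 and 198 CPM (-1.42 ± 0.45, edgeR adjusted p = 0.983). The highest haloperidol mouse lay above the lowest placebo mouse only. Genes of venous and arterial endothelium, a list that shares Slc38a5, were higher in 6 of 11 (median 0.19). Tjp1, which encodes a tight junction scaffold, was at -0.52 ± 0.25, and Mgp, the matrix Gla protein gene of arterial cells, at 1.25 ± 0.43, of which haloperidol 2 held 3966 CPM against 800 to 1320 CPM in the other 3.

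Interferon response genes were lower in 11 of 11 tested members in the class other (median -0.37), where 50.8% of all genes were lower. Ifit1, an interferon-induced antiviral gene, was at 0, 40.3, 77.8 and 30.0 CPM against 136, 118, 124, 78.1 and 49.6 CPM (-1.18 ± 0.48), and it was the only member of the 11 at an unadjusted p under 0.05. Ribosomal protein genes were lower in 77 of 80 (median -0.24), with 6 at that level, which 2.38% of all genes reached in that direction. Among the 6 were Rpl13 (-0.40 ± 0.16) and Rpl3 (-0.42 ± 0.17). Immediate early genes, the first to be transcribed when a cell is stimulated, were higher in 9 of 15 (median 0.23). The nuclear receptor gene Nr4a1 was at 386, 161, 77.8 and 150 CPM against 21.5, 18.6, 17.6, 117 and 79.3 CPM (1.77 ± 0.53, edgeR adjusted p = 0.948), and only 1 haloperidol mouse lay inside the placebo range.

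Actin genes showed no common direction in the class other, with 15 of 23 higher and 8 lower (median 0.12). Tpm1, which encodes a tropomyosin, was at 0.61 ± 0.23, while the 2 thymosin genes were lower. Nrip2 had the smallest p among the higher genes of the class at a mean log2 CPM of at least 6, with 358, 167, 267 and 240 CPM against 108, 43.5, 159, 87.8 and 149 CPM (1.23 ± 0.33, edgeR adjusted p = 0.551). Its groups did not overlap, as for 0.594% of the genes in the class that were higher and 1.45% that were lower.

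**Figure D1:**
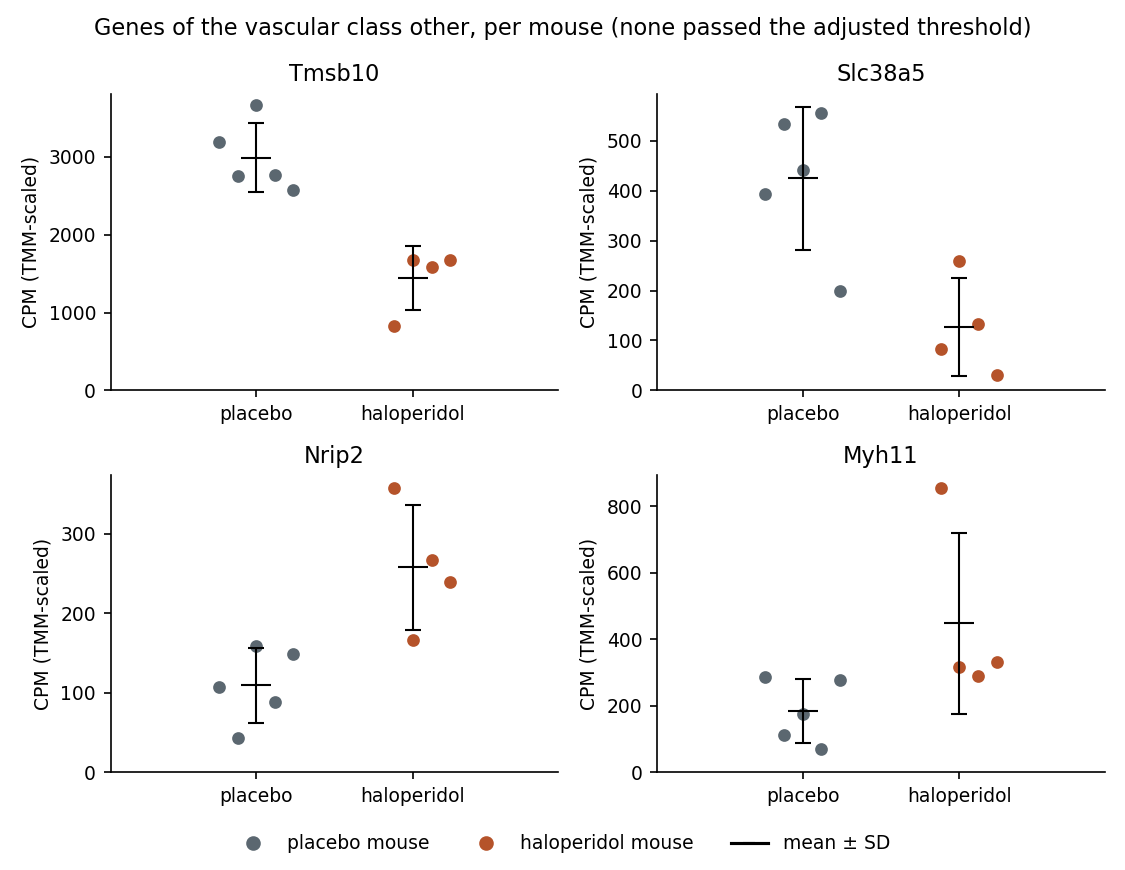
Tmsb10, Slc38a5, Nrip2 and Myh11 in the class other, in CPM scaled by TMM (vertical axes). Points are mice, 5 with placebo and 4 with haloperidol, and bars are the mean ± SD; the groups do not overlap for Tmsb10, Nrip2 and Myh11, and none of the 4 passed the adjusted threshold.

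In microglia, the resident macrophages of brain tissue, Rgs2 was lower with haloperidol and came nearest to the threshold. Only haloperidol 3 to 5 had 10 or more microglia. Rgs2, a regulator that shortens signalling by G protein-coupled receptors (chromosome 1, 143999338 to 144004161), was at 413, 652 and 546 CPM in these mice and at 1193, 1123, 845, 1175 and 785 CPM in placebo 1 to 5. The groups did not overlap, and the means were 537 ± 120 (SD, n = 3) and 1024 ± 194 CPM (SD, n = 5). The log2 fold change was -0.94 ± 0.21 (edgeR adjusted p = 0.134). A fit of haloperidol and placebo mice only called it (edgeR adjusted p = 0.0498), and leaving out single mice gave edgeR adjusted p-values of 0.0922 to 0.980. Rgs1, of the same family, was at -0.81 ± 0.24.

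Of 2967 genes tested in microglia 0 passed (0%) by edgeR, and 0 by DESeq2, while 162 had an unadjusted p under 0.05 (5.46%). At any p 48.4% of the genes were higher and 51.6% lower with haloperidol. Groups of mice did not overlap for 2.93% of the genes in the higher direction and for 1.75% in the lower. Psmb5, a catalytic subunit of the proteasome, was at 91.2, 112 and 66.6 CPM against 181, 219, 248, 145 and 118 CPM (-1.01 ± 0.28, edgeR adjusted p = 0.805). The 3 haloperidol mice lay below all placebo mice, by a narrow margin over placebo 5. Over all proteasome subunits, 23 of 35 were lower (median -0.10), as were 26 of 31 in neurons (-0.24), 22 of 32 in the class labelled oligodendrocyte (-0.20), 24 of 31 in neuroblasts (-0.14) and 26 of 32 in astrocytes (-0.10), but 16 of 34 in the class other (0.03).

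Homeostatic genes, which mark microglia at rest, were lower in 12 of 14 members (median -0.23 against -0.01 over all genes of the class), with 5 lower at an unadjusted p under 0.05, a level 2.63% of all genes reached in that direction. Olfml3, a secreted protein gene of microglia, was at 1400, 1357 and 1279 CPM against 2204, 1852, 2068, 2263 and 1731 CPM (-0.59 ± 0.19). Fcrls, an Fc receptor-like gene of microglia, was at 1813, 1919 and 1978 CPM against 2764, 2639, 2181, 3561 and 1967 CPM (-0.46 ± 0.17). Olfml3 was apart from placebo, and Fcrls overlapped through placebo 5 only. P2ry13 and Tmem119 were also at an unadjusted p under 0.05.

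Of the genes of activated microglia, 7 of 12 were lower (median -0.16). Cd9, a tetraspanin gene in that list, was at 1137, 1529 and 1718 CPM against 2272, 1983, 1732, 2662 and 2113 CPM (-0.56 ± 0.18), with haloperidol 5 just below placebo 3. Fth1, the ferritin heavy chain gene, was at 0.28 ± 0.17. Lysosomal genes were lower in 23 of 27 (median -0.18). Of these 1 was at an unadjusted p under 0.05 by edgeR, a level 2.63% of all genes reached in that direction. Immediate early genes were lower in 12 of 14 (median -0.22). Lysosomal genes were also lower in 20 of 22 members in neurons (median -0.16), in 19 of 26 in the class labelled oligodendrocyte (-0.14), in 11 of 16 in neuroblasts (-0.12) and in 17 of 26 in astrocytes (-0.05), but in 9 of 21 in the class other (0.03).

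Ribosomal protein genes were higher in microglia in 80 of 80 tested members, with a median of 0.32, where 48.4% of all genes in the class were higher. At an unadjusted p under 0.05 there were 33, and 2.83% of all genes reached that level in the higher direction. In 29 members the 3 haloperidol mice lay above all placebo mice, as for 2.93% of all genes in the class. Rpl12, which encodes a large-subunit protein, was at 1062, 930 and 1039 CPM against 537, 685, 792, 406 and 681 CPM (0.71 ± 0.21, edgeR adjusted p = 0.805). These genes share their RNA source in each mouse, so their number is not a number of independent results.

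Markers of other cells were rare in microglia. Those of blood cells, of which 4 of 5 were seen, summed to 0 in all 3 haloperidol mice and in placebo 1 and placebo 2, and to at most 122 raw CPM in the other placebo mice. Neuroblast markers, 5 of 9 seen, summed to 13.4 to 17.5 raw CPM with haloperidol and 0 to 12.9 with placebo, which is only a few UMIs in a mouse. Over all cells, the blood markers summed to 0, 2.97, 0, 0.811 and 3.20 raw CPM in haloperidol mice and to 3.10, 0, 69.6, 98.5 and 26.9 in placebo mice. Their part in the microglial values was not tested.

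**Figure D2:**
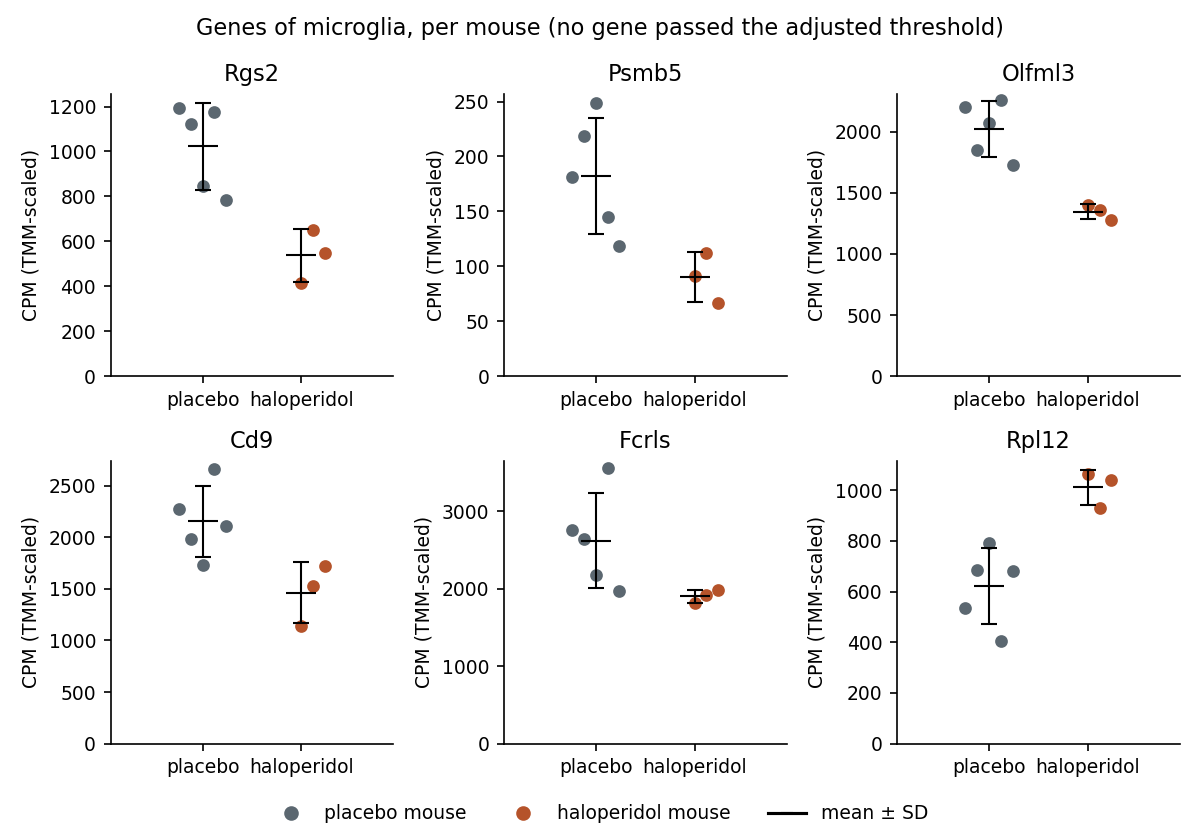
Microglial genes in CPM scaled by TMM (vertical axes), for 5 placebo and 3 haloperidol mice. Points are mice and bars the mean ± SD; Rgs2, Psmb5, Olfml3 and Cd9 lie lower and Rpl12 higher with haloperidol without overlap, Fcrls overlaps through 1 mouse, and none passed the adjusted threshold.

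Neurons held the dopamine and peptide genes on which haloperidol is known to act, and none of them passed. The test in neurons called 0 of 3946 genes (0%) with edgeR and 0 with DESeq2, and 94 had an unadjusted p under 0.05 (2.38%), 1.34% higher and 1.04% lower. At any p 49.5% were higher and 50.5% lower. Drd1, the D1 receptor gene, was at 304, 146, 310, 190 and 162 CPM with haloperidol and 245, 261, 166, 208 and 193 CPM with placebo (0.08 ± 0.30). Drd2, the gene of the receptor that haloperidol blocks, was at 147, 205, 161, 162 and 255 CPM and 160, 172, 166, 76.7 and 156 CPM (0.32 ± 0.35). The groups overlapped for both genes.

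Of the peptides, Penk, the enkephalin precursor gene, was at 6162, 6224, 6095, 4962 and 4608 CPM with haloperidol and at 8406, 5870, 7509, 2445 and 5634 CPM with placebo. The log2 fold change was -0.09 ± 0.35 and the placebo mice spread more widely than the haloperidol mice. Tac1, the substance P precursor gene, was at 1815, 1977, 5021, 2971 and 1494 CPM against 2024, 7254, 3666, 4812 and 4917 CPM. It was the only one of 21 tested members of the dopamine and neuropeptide list at an unadjusted p under 0.05 (-0.76 ± 0.32, edgeR adjusted p = 0.995), a level reached by 1.04% of all genes in the lower direction, and the groups overlapped. Pdyn, the dynorphin precursor gene of the same neurons, was at -0.51 ± 0.33, and Adora2a, the adenosine receptor gene of indirect-pathway neurons, at -0.41 ± 0.35.

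In that list 13 members were higher and 8 lower (median 0.12), where 49.5% of all genes in neurons were higher. Rasd2, which encodes a striatal small GTPase, was at 0.51 ± 0.29, and Rgs9, the striatal regulator of G protein signalling, at 0.13 ± 0.26. Rgs4, Rgs2 and Rgs17 of the same family were at 0.29 ± 0.29, -0.23 ± 0.33 and -0.59 ± 0.29, so the family had no common direction, with 4 of 8 higher. Homer1, a postsynaptic scaffold gene that antipsychotics are known to induce acutely, was at -0.03 ± 0.29.

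**Figure D3:**
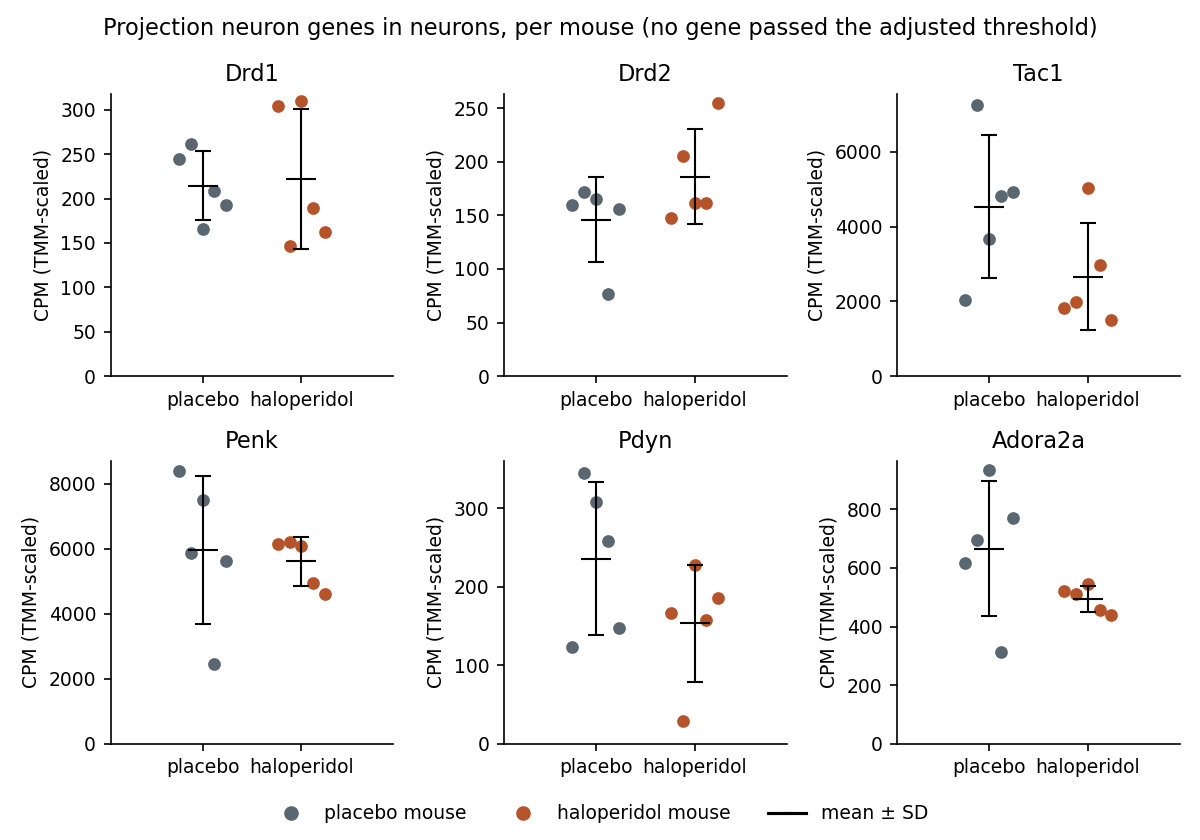
Genes of direct-pathway (Drd1, Tac1, Pdyn) and indirect-pathway (Drd2, Penk, Adora2a) projection neurons in neurons, in CPM scaled by TMM (vertical axes), for 5 mice a group. Points are mice and bars the mean ± SD; the groups overlap for all 6 genes.

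Immediate early genes were lower in neurons in 8 of 8 tested members (median -0.27), where 50.5% of all genes were lower, with 0 at an unadjusted p under 0.05. Jun, a subunit of the AP-1 factor, was at 39.3, 29.3, 39.8, 56.2 and 139 CPM against 85.2, 147, 47.3, 93.2 and 36.8 CPM (-0.63 ± 0.53), and the groups overlapped, with haloperidol 5 near the top and placebo 5 near the bottom. Fos was too low to test in neurons, at 24.9 ± 10.5 raw CPM with haloperidol and 54.8 ± 34.4 with placebo (SD, n = 5 each). The list was also lower in 7 of 9 members in neuroblasts (median -0.30), 12 of 14 in microglia (-0.22) and 6 of 8 in astrocytes (-0.14). In the class labelled oligodendrocyte 7 of 11 were lower (-0.08), but in the class other 6 of 15 (0.23).

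Genes of synaptic vesicle release were higher in 15 of 18 (median 0.27) and those of glutamate receptors and the postsynaptic density in 13 of 19 (median 0.18), whereas GABA genes were higher in 7 of 15 (median -0.08). Of these lists 1 vesicle gene, 0 glutamate and 0 GABA genes had an unadjusted p under 0.05 by edgeR. Gad1, which makes GABA, was at 314, 454, 203, 478 and 509 CPM against 266, 280, 154, 323 and 322 CPM (0.49 ± 0.29), with the groups overlapping. Gria4, an AMPA receptor gene, was at 0.73 ± 0.42.

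The neurons of a mouse were a mixture that varied between mice. Interneuron markers, of which 8 of 8 were seen, summed to 12.5 to 16093 raw CPM with haloperidol and 5.4 to 21930 with placebo. Their medians were 8329 and 271 raw CPM, and the placebo mice were mostly far lower, with placebo 4 the highest of all. The direct-pathway markers, with medians of 1990 and 4698 raw CPM, are mostly Tac1 itself and are no separate measure of the mixture. The part of the mixture in the neuronal values was not tested.

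By p alone, the leading neuronal genes at a mean log2 CPM of at least 6 were Dst, which encodes a cytoskeletal linker (0.97 ± 0.29), Peg3, a paternally expressed zinc finger gene (1.14 ± 0.36), Tkt, the transketolase gene (-0.78 ± 0.28), and Pnck, a calcium/calmodulin-dependent kinase gene (-0.70 ± 0.26). Dst was at 393, 220, 135, 172 and 208 CPM against 117, 127, 106, 110 and 82.7 CPM. Dst and Tkt were apart between the groups, as were 0.431% of all genes in the higher direction and 0.329% in the lower. None of the 4 passed (edgeR adjusted p = 0.995 each).

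Astrocytes, the largest class, gave 0 calls among 3931 genes (0%) by edgeR and 0 by DESeq2, with 148 at an unadjusted p under 0.05 (3.76%), 2.16% higher and 1.6% lower. At any p 51.8% were higher and 48.2% lower, and groups did not overlap for 0.254% in the lower direction. Nipbl, the cohesin loader gene, was at 192, 153, 92.6, 105 and 98.6 CPM with haloperidol and at 40.6, 67.6, 62.6, 67.3 and 80.9 CPM with placebo. All 5 haloperidol mice lay above all 5 placebo mice, as for 0.382% of the genes of the class in that direction. The log2 fold change was 0.89 ± 0.28 (edgeR adjusted p = 1.00, unadjusted p = 0.00213). Uqcrc1, which encodes a subunit of respiratory complex III, was at 204, 212, 260.3, 269 and 204 CPM against 474, 270.2, 297, 438 and 382 CPM (-0.68 ± 0.21), and was apart by a narrow margin.

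Sterol genes, which haloperidol is known to affect through enzymes of cholesterol synthesis, had no common direction in astrocytes, with 10 of 17 higher (median 0.06). Fdft1, which encodes squalene synthase, was at -0.48 ± 0.25, Insig1, a sterol sensor gene, at -0.41 ± 0.24, Dhcr7, the last enzyme of the pathway, at -0.27 ± 0.34 and Hmgcs1, an early enzyme, at -0.26 ± 0.26. None was at an unadjusted p under 0.05.

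Clock genes, which keep the daily rhythm, were higher in astrocytes in 11 of 11 tested members (median 0.27), where 51.8% of all genes in the class were higher. Cry2, a repressor of the clock, was at 115, 106, 67.6, 125 and 91.6 CPM against 71.1, 37.5, 73.0, 70.7 and 71.9 CPM (0.53 ± 0.27), with haloperidol 3 inside the placebo range. None of the 11 reached an unadjusted p under 0.05. Clock genes were also higher in 6 of 6 tested members in the class other (median 0.83) and in 4 of 5 in neurons (0.23). The labels used here give no hour of dissection, so the time of day of each mouse was not tested.

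Genes of astrocyte transport and channels were higher in 8 of 14 (median 0.09), with the potassium channel gene Kcnj10 at 0.51 ± 0.33. Of 15 genes of reactive astrocytes only Gfap, the intermediate filament gene that marks them, was abundant enough to test (0.02 ± 0.65). Glucocorticoid-responsive genes were higher in 4 of 5 (median 0.24), with Tsc22d3 at 0.56 ± 0.29. Azin1, which counters the inhibitor of polyamine synthesis (1.06 ± 0.31), and Sec11a, a signal peptidase gene (-0.86 ± 0.26), had the smallest p in their direction among astrocyte genes whose mean log2 CPM reached 6, with overlapping groups.

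Neuroblasts gave 0 calls among 2253 genes (0%) by edgeR and 0 by DESeq2, with 71 at an unadjusted p under 0.05 (3.15%), 1.51% higher and 1.64% lower. At any p 49.4% were higher and 50.6% lower. App, the amyloid precursor protein gene (chromosome 16, 84949685 to 85173766), was at 128, 176, 127, 101 and 118 CPM with haloperidol and 204, 255, 332, 258 and 264 CPM with placebo. Cct8, a subunit of the chaperonin that folds actin and tubulin (chromosome 16, 87483326 to 87495873, with Usp16 overlapping on the other strand), was at 185, 106, 245, 220 and 178 CPM against 383, 312, 332, 449 and 367 CPM. Both were apart between the groups, as for 0.399% of the genes in that direction. Their log2 fold changes were -1.04 ± 0.23 and -0.88 ± 0.20 (edgeR adjusted p = 0.184 for both).

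Among the higher genes of neuroblasts, Cep83, a centriole gene, was at 1.27 ± 0.34 and Tmem55b, a lysosomal membrane gene, at 1.13 ± 0.31 (edgeR adjusted p = 0.580 for both). Cep83 was at 128, 176, 127, 119 and 74.0 CPM against 51.1, 42.5, 55.4, 40.8 and 51.4 CPM, and was apart as well, as were 0.266% of genes in that direction. Cell cycle genes were higher in 14 of 19 (median 0.25), with 2 at an unadjusted p under 0.05, a level 1.51% of all genes reached in that direction. Cenpe, a kinetochore motor gene, was at 200, 247, 92.8, 110 and 178 CPM against 106, 42.5, 18.5, 40.8 and 58.7 CPM (1.15 ± 0.38), and Cenpa, the centromeric histone gene, at 0.96 ± 0.44. Markers of cycling cells, 9 of 9 seen, summed to 1075 to 2736 raw CPM with haloperidol and 71.9 to 2251 with placebo. The low end was placebo 3 alone, and the other placebo mice, at 1283 to 2251 raw CPM, lay inside the haloperidol range.

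Genes of the mitochondrial genome were higher in neuroblasts in 12 of 12 tested members (median 0.34). The direction was shared by 12 of 12 in the class labelled oligodendrocyte (median 0.20), 12 of 13 in neurons (0.26), 11 of 12 in astrocytes (0.18) and 8 of 12 in microglia (0.09), but by 5 of 12 in the class other (-0.01). The complex I gene mt-Nd2 was at 1881, 669, 1148, 1025 and 1140 CPM against 613, 850, 573, 938 and 888 CPM (0.63 ± 0.21), and the complex IV gene mt-Co1 at 0.43 ± 0.19. Haloperidol 1 was the highest for mt-Nd2 and haloperidol 2 lay among placebo mice. The mitochondrial share of whole libraries was higher with haloperidol too, as given above, and its part was not tested. Nuclear genes of oxidative phosphorylation did not share the direction in neuroblasts (29 of 71 higher, median -0.05). They were higher in 52 of 71 in microglia (0.14), but in 20 of 73 in astrocytes (-0.05) and 28 of 73 in neurons (-0.08). In the class labelled oligodendrocyte 32 of 72 were higher (-0.06) and in the class other 32 of 71 (-0.02). Genes of neuroblast migration were lower in 13 of 19 (median -0.09), with the tubulin genes Tubb3 at -0.39 ± 0.21 and Tubb2b at -0.31 ± 0.17, and those of the unfolded protein response higher in 5 of 7 (median 0.05), whereas they were lower in 11 of 14 in astrocytes (-0.21), 11 of 14 in microglia (-0.18), 13 of 15 in neurons (-0.10) and 11 of 13 in the class labelled oligodendrocyte (-0.25), and higher in 6 of 11 in the class other (0.03).

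The class labelled oligodendrocyte, with its precursor markers, gave 0 calls among 3157 genes (0%) by edgeR and 0 by DESeq2, over 4 mice a group, with 104 at an unadjusted p under 0.05 (3.29%), 1.55% higher and 1.74% lower. At any p 51.3% were higher and 48.7% lower. Creld1, a gene of a membrane protein of the endoplasmic reticulum, was at 103, 167, 156 and 146 CPM against 32.5, 53.9, 37.0 and 49.1 CPM (1.82 ± 0.48, edgeR adjusted p = 0.998). Tspan13, a tetraspanin gene, was at 344, 379, 389 and 396 CPM against 545, 669, 675 and 589 CPM (-0.70 ± 0.21). Both were apart between the groups, as were 1.33% of the genes in the higher direction and 1.05% in the lower. Pcbp4 was at 0.84 ± 0.27 and the flippase subunit gene Tmem30a at -1.07 ± 0.30.

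Heat shock chaperone genes were lower in that class in 10 of 10 tested members (median -0.38), where 48.7% of all genes were lower. Hsp90aa1, the inducible HSP90 gene, was at 928, 660, 545 and 500 CPM with haloperidol and at 1013, 830, 1045 and 944 CPM with placebo (-0.58 ± 0.20). Haloperidol 1 lay inside the placebo range. It was the only member at an unadjusted p under 0.05, as for 1.74% of the genes of the class in that direction. Precursor genes were higher in 8 of 14 (median 0.01), among them Pdgfra, the receptor that marks precursors, at 0.26 ± 0.19. Myelin genes were higher in 4 of 6 (median 0.22) and cholesterol genes lower in 4 of 5 (median -0.16), with 0 of either at an unadjusted p under 0.05 by edgeR. Myelin markers summed to 7189 raw CPM in haloperidol 3, 611 to 2028 in the other haloperidol mice and 2085 to 3900 with placebo. Cldn11, a myelin gene, was at 0.81, and at -1.24 without haloperidol 3. The class labelled olig precursor, which carried myelin markers, had 10 or more cells in 2 haloperidol and 3 placebo mice and was not tested.

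**Figure D4:**
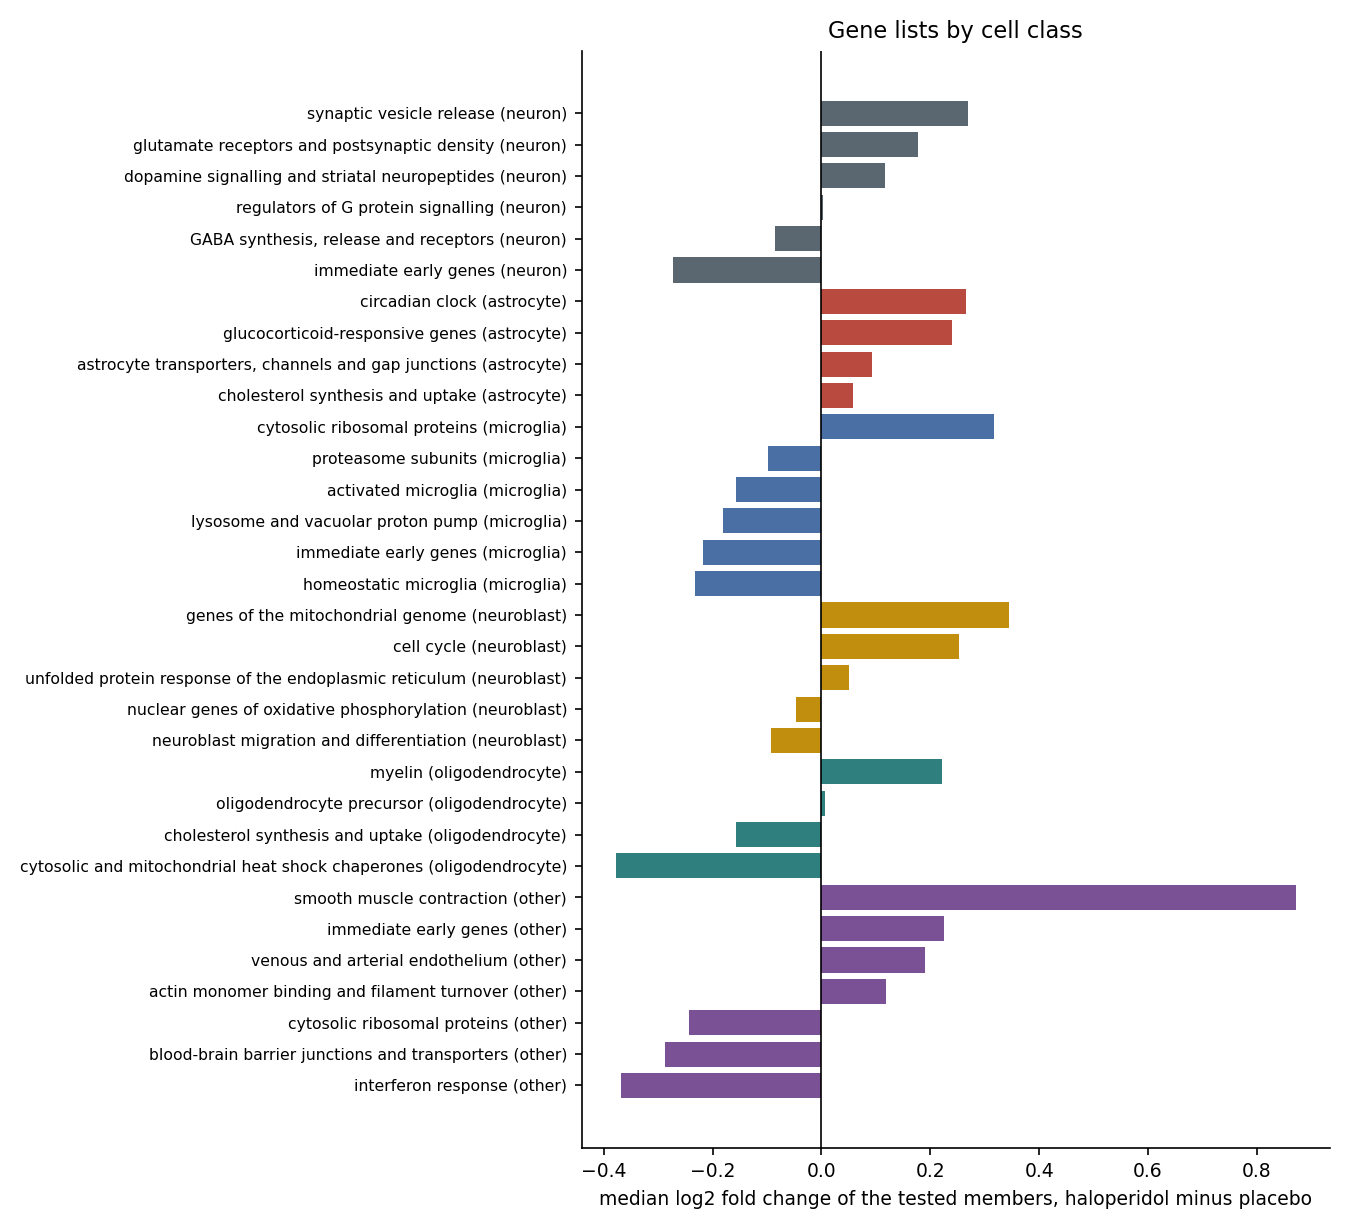
Median log2 fold change of the tested members (horizontal axis, haloperidol minus placebo) for the 32 list and class pairs with at least 5 tested members. Bars are medians over genes, coloured by cell class, with no error since members of a list are not replicates; smooth muscle contraction in the class other is the longest bar at 0.87.

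A difference shared by classes was sought as the mean log2 CPM over astrocytes, neuroblasts and neurons, the classes that all 10 mice held. By limma 0 of 1094 genes passed (0%), and 31 had an unadjusted p under 0.05 (2.83%). Strbp, which encodes an RNA-binding protein, had mean log2 CPM of 7.69, 7.80, 7.49, 7.38 and 7.47 with haloperidol and 7.03, 7.29, 6.94, 6.83 and 7.12 with placebo, a difference of 0.52 ± 0.15 (SE; limma adjusted p = 0.903). Its groups did not overlap. Macf1, a linker of actin and microtubules, was at 0.58 ± 0.17, Arpc3, a subunit of the actin-nucleating Arp2/3 complex, at -0.62 ± 0.18, and Cct5, another chaperonin subunit, at -0.51 ± 0.17, all as differences of mean log2 CPM.

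The share of cells in each class did not differ beyond the spread between mice. Neurons made up 19.6% ± 6.66 of the cells with haloperidol and 13.8% ± 3.77 with placebo (SD, n = 5 each), a difference of 5.83 percentage points (p = 0.127 by exact permutation of mice, two-sided, and 0.556 adjusted over 7 classes). Microglia made up 11.6% ± 5.72 and 14.8% ± 3.58. The class other made up 9.87% ± 2.61 and 11.9% ± 3.02. Adjusted p-values of the 7 classes ran from 0.556 to 0.897 in this exact permutation test. Shares of recovered cells also depend on which cells survived dissociation, and that was not measured here.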

How the data were processed

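The deposited table holds raw UMI counts per gene and cell, with class, drug and mouse in its metadata, as the authors left them. Cell Ranger and Seurat were run and the build was mm10, per the submitters' processing notes. Their versions, and whether counting used strand, are not stated in these sources. Drug came from the sample labels. The members and gene lists were chosen with earlier results of these data known.

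Left out were 213 repeated cells, cells over 20% mitochondrial UMIs and Scrublet doublets (scanpy 1.11.5; 0.564% of cells). Counts were summed per mouse and class. Classes with at least 3 mice of 10 cells in both groups were tested with edgeR 4.0.16 (filterByExpr, TMM, robust quasi-likelihood; R 4.3.3), with haloperidol, placebo and olanzapine in one fit, and Benjamini-Hochberg adjustment within a class at 0.05. Differences between classes used edgeR with mouse as block, and the mean over classes limma 3.58.1 with a prior count of 2. Shares and quality used exact two-sided permutation (scipy 1.17.1). UMIs per mouse ran from 336177 to 2057135, so genes with few UMIs are imprecise. The scripts were tested on simulated data.

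Named were every called gene, the 2 higher and 2 lower genes of smallest p per class at a mean log2 CPM of at least 6, 5 each way in the mean over classes, up to 2 members per described list and class, and a fixed set of 16 genes; 31 lists were drawn up, and 34 list and class pairs described. The 1 called gene and some others that this rule names are not reported here; the fits and counts include them. Where nothing says that mice came from separate cages or days, p-values measure the spread between these mice. Coordinates are from GENCODE M21. Alternatives were other cell filters, at least 20 cells, 2 groups only, RLE, DESeq2 1.42.0, no filter, a prior count of 0.5, sums over all cells, adjustment over all classes and leaving out mice. Not planned, and added after seeing the data, were keeping the repeated cells and the fit of endothelial-marker cells at 5 or more a mouse.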

Additional observations from a re-analysis of the deposited data

Results flagged for a closer look

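A mouse stood far from the other mice of its group in 22 of 246 groups checked (Dixon's criterion, which chance meets in about 1 of 20 groups); values are CPM scaled by TMM unless they are shares. In the class other, haloperidol 2, with 12 cells, held 826 CPM of Tmsb10 (next 1590), 3966 CPM of Mgp (next 1320) and 854 CPM of Myh11 (next 330). In neurons, placebo 4 held 76.7 CPM of Drd2 (next 156), 241 CPM of Rgs9 (next 437), 104 CPM of Hmgcs1 (next 47.9) and 2319 CPM of Tmsb10 (next 1064). Placebo 2 held 134 CPM of Pnck (next 230.2) and 82.9 CPM of Abat (next 129), and haloperidol 5 held 139 CPM of Jun (next 56.2).

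In astrocytes, placebo 3 held 443 CPM of Slc4a4 (next 319), placebo 2 held 37.5 CPM of Cry2 (next 70.7) and placebo 4 held 118 CPM of Klf9 (next 300.3). In neuroblasts, placebo 2 held 156 CPM of Ndufa11 (next 228), haloperidol 5 held 15055 CPM of Tmsb10 (next 10927) and placebo 1 held 1209 CPM of Fos (next 314). Placebo 1 was also highest for Fos in microglia, at 5844 CPM (next 3002). In the class labelled oligodendrocyte, haloperidol 5 held 41.6 CPM of Tmem30a (next 171), haloperidol 3 held 757 CPM of the myelin gene Cldn11 (next 125) and haloperidol 4 held 156 CPM of Msmo1 (next 68.7). Of the shares of cells, placebo 1 had 11.0% in the class labelled olig precursor (next 4.67%) and placebo 2 had 5.45% in the class labelled oligodendrocyte (next 10.3%).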

How the results depend on the processing

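The number of genes called over the 6 classes, 1 in the report, was 2 with haloperidol and placebo mice only (with Rgs2 in microglia), 2 with DESeq2 and 2 with the repeated cells kept (with Tmsb10 in the class other both times), and 7 without the filter on low counts. It was 0 with at least 20 cells, where the class other had too few mice, 0 with adjustment over all classes together, 0 with each mouse's cells summed over classes and 0 in endothelial-marker cells, and 0 to 1 with single mice left out (0 without haloperidol 3 or haloperidol 4). Genes differing between classes numbered 0 in the report, 1 without the filter, and 0 to 1 with single mice left out (1 without placebo 4). The planned fit of endothelial-marker cells at 10 cells a mouse could not be made, since too few mice had them. No paired analysis was possible because haloperidol and placebo mice share no mouse number in the labels.

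With the repeated cells kept, the haloperidol minus placebo difference was 0.454 points for the astrocyte share, 1.2 for median UMIs and 59.2 for median genes. Without mouse numbers 2 and 4, which are haloperidol 1 and haloperidol 2, it was -1.86 points for the neuroblast share and 111 for cells. With single mice left out, it ran from -2.39 to 0.477 points for the astrocyte share, from -1.37 to 2.07 for the neuroblast share, from -95.3 to 37.6 for cells and from -79.5 to 35.0 for median genes.

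Of 120 named pairs of gene and class, 99 kept their direction in every alternative run and 21 did not; of 2012 settings 1949 kept both direction and call. None of the 21 had passed. Gfap in astrocytes (log2 fold changes throughout) went to -0.00428 with all deposited cells, -0.0044 with at least 20 cells, -0.0243 with DESeq2, -0.0644 without a filter and -0.0442 without mouse numbers 2 and 4. Without those 2 mice Tmsb4x in astrocytes was 0.26, Rgs9 in neurons -0.0173, and in the class labelled oligodendrocyte Fos -0.12 and Tmsb4x 0.16. With at least 20 cells Homer1 in neurons was 0.00823, and in the class labelled oligodendrocyte Fos was -0.12 and Tmsb4x 0.15. Without a filter Tmsb4x in neuroblasts was -0.0237 and Fos in the class labelled oligodendrocyte -0.0777. Homer1 in neurons was 0.00513 with 2 groups only and 0.0368 with the repeated cells kept.

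With single mice left out, astrocyte values ran from -0.24 to 0.42 (Gfap), -0.43 to 0.42 (Fos), -0.56 to 0.0313 (Dhcr7), -0.45 to 0.0162 (Hmgcs1) and -0.33 to 0.10 (Tmsb4x). Neuroblast values ran from -0.79 to 0.45 (Fos), -0.000262 to 0.30 (Hmgcs1), -0.24 to 0.0305 (Tmsb10) and -0.00918 to 0.13 (Tmsb4x), and Fos in microglia from -0.62 to 0.11. Neuron values ran from -0.0837 to 0.17 (Drd1), -0.27 to 0.0813 (Penk), -0.00668 to 0.23 (Rgs9), -0.22 to 0.15 (Homer1), -0.23 to 0.66 (Tmsb10) and -0.19 to 0.43 (Tmsb4x). In the class labelled oligodendrocyte they ran from -1.24 to 1.37 (Cldn11), -0.57 to 0.00586 (Cryab), -0.12 to 0.28 (Fos), -0.0459 to 0.32 (Tmsb10) and -0.28 to 0.16 (Tmsb4x). The cause of these changes was not tested.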
